A study of Homo sapiens with 4 samples.

Results

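TNF superfamily ligands and receptors were examined in human proximal tubular cells (HPTCs) exposed to IL-1β together with empagliflozin (Empa). The members are the array's non-control probes named TNF, LTB, or TNFSF or TNFRSF followed by a digit. These were 43 of 34127 probes and 34 of 25992 gene names, of which 13 are ligands and 21 are receptors. FAS, CD40, LTA and other relatives whose symbols do not follow this naming are described separately below.

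Total RNA was hybridised to 4 one-colour Agilent oligonucleotide arrays, of which 2 carry the label HK-2 and 2 the label RPTEC/TERT1. HK-2 is a human proximal tubular line that papillomavirus E6/E7 genes immortalised, whereas the RPTEC/TERT1 line carries telomerase reverse transcriptase instead. All 4 cultures went 24 h without serum or supplements before 24 h with IL-1β at 10 ng/mL plus Empa at 500 nM. No array of unstimulated cells, or of cells given IL-1β alone, was used here, so no value below is an effect of IL-1β or of Empa, and the comparison the arrays allow is between the labels.

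TNF superfamily ligands are trimeric proteins, made mostly as membrane proteins that proteases can shed, and each binds one or more receptors of the family. Receptors with a cytoplasmic death domain can recruit FADD or TRADD and start caspase cleavage or NF-κB signalling, receptors without one signal through TRAF adaptors, and decoy receptors bind ligand without passing on the signal. In the kidney, tubular epithelium is known both to answer TNF and to make it during inflammation.

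The level of a gene is given as log2 of its processed signal over the 75th percentile of its array, so that 0 is the brightness of that percentile. Signals were floored at 2.42% of the percentile, a level of -5.37. A probe counts as well above background where the scanner software flagged it so. Levels follow the order HK-2 replicate 1, HK-2 replicate 2, RPTEC/TERT1 replicate 1, RPTEC/TERT1 replicate 2 throughout, and fold values compare 1 array with 1 array. In these bulk samples, fewer cells of a type and less RNA per cell cannot be told apart.

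The arrays did not group by their labels. Across 17928 genes, RPTEC/TERT1 replicate 2 correlated with HK-2 replicate 1 at r = 0.980 and RPTEC/TERT1 replicate 1 with HK-2 replicate 2 at r = 0.976, while the pair labelled HK-2 reached 0.865 and the pair labelled RPTEC/TERT1 reached 0.855. Genes are not independent replicates, and these correlations are a description. Replicate 1 of both labels shares a scan day and replicate 2 another, so that scan day and replicate number cannot be told apart, and neither puts these arrays together. Whether the labels of these arrays were exchanged was not tested, and if they were, every mean, interval and count of calls between HK-2 and RPTEC/TERT1 below would compare mixed groups. The names below are therefore those of arrays as labelled, and all 6 pairs of arrays are described.

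Of 14 proximal tubule markers, 5 were well above background on all arrays and 5 on none, among the latter CUBN, SLC22A6, HNF4A and PCK1. The kidney transcription factor PAX2 stood at 2.90, -5.37, -5.37 and 2.66 and the epithelial cadherin CDH1 at -0.72, -5.37, -5.37 and -1.12. The summed level of the 7 kidney epithelial markers ran from 2005 to 5085% of the 75th percentile in HK-2 and from 1960.4 to 4806% in RPTEC/TERT1, with 5 of the 7 well above background on every array. The matrix proteoglycans DCN and LUM, both in the list of 6 fibroblast markers, were well above background only on RPTEC/TERT1 replicate 1 and HK-2 replicate 2. COL1A1 was so on all arrays but RPTEC/TERT1 replicate 2, at -4.93, -4.40, -4.27 and -5.13, and COL1A2, PDGFRA and PDGFRB on no array. The summed fibroblast markers came to 16.2 and 194% in HK-2 and to 148 and 15.4% in RPTEC/TERT1. A gene at the floor adds 2.42% to these sums and to those of the other marker lists. The values of 16.2 and 15.4% therefore lie near what the floor alone gives. Of 10 leukocyte markers 3 were above background on all arrays, PTPRC between -4.25 and -3.32 and CD79A up to 2.10 among them, LCP2 was on none, and the list summed to 254 to 343% in HK-2 and 175 to 480% in RPTEC/TERT1. Of 5 endothelial markers, CDH5 was above background on all arrays, at -2.15, -2.36, -3.02 and -2.51. PECAM1 was so only on HK-2 replicate 1, at -3.07, and KDR, TEK and VWF on no array. The list summed to 29.1 to 41.9% in HK-2 and 22.0 to 27.8% in RPTEC/TERT1. The part of these other cell type markers in the values of the TNF superfamily was not tested.

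Promoter stretches from the RefSeq promoter table (GRCh38.p14) are shown for 5 of the 8 members that differed between the labels by more than 2 log2 units in opposite directions within the replicate numbers, as the 250 bases before the annotated start, 5′ to 3′ on the strand of the gene. Capitals mark motif matches. LTB, at chr6:31582426-31582675 on the minus strand, holds 1 match to the kappaB consensus, and TNF, at chr6:31575315-31575564 on the plus strand, holds TATAAA. TNFSF14, at chr19:6670161-6670410 on the minus strand, holds a pair of overlapping kappaB matches and 1 match to TGANTCA, the AP-1 motif. TNFSF10, at chr3:172523431-172523680 on the minus strand, holds TATAAA and 2 matches to GAAANNGAA, which interferon-responsive elements contain, read here on the opposite strand. TNFRSF8, at chr1:12063053-12063302 on the plus strand, holds none of the 4 motifs.
LTB promoter: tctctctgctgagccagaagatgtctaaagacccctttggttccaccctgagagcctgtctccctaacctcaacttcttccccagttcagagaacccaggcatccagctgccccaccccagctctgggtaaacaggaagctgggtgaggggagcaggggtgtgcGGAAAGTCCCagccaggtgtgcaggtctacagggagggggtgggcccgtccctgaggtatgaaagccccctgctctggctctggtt
TNF promoter: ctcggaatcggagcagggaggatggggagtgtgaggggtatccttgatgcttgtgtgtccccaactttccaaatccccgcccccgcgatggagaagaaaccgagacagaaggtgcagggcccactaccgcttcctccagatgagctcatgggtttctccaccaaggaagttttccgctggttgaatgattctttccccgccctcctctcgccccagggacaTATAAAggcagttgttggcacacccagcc
TNFSF14 promoter: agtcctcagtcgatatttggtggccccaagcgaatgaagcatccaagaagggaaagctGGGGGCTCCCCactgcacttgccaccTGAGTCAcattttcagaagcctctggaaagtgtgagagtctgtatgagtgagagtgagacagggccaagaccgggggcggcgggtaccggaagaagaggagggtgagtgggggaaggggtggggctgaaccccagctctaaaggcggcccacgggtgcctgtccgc
TNFSF10 promoter: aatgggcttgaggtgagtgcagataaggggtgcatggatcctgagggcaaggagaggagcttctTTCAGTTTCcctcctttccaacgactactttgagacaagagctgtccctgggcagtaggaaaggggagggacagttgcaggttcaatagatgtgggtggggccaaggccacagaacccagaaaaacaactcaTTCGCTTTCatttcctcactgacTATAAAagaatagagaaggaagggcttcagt
TNFRSF8 promoter: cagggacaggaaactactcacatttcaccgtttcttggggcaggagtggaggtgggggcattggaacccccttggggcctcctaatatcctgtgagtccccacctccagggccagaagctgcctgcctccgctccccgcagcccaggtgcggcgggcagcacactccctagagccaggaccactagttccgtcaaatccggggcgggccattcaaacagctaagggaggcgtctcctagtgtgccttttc

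The kappaB consensus and GAAANNGAA were searched on both strands, TGANTCA reads the same on both, and TATAAA was searched on the strand of the gene. For LTB and TNFSF14, which have 2 starts in the table, the one listed first is shown. Each member was counted by its first listed start, while the promoters set beside the members include every listed start of a gene. Among 23 members with a promoter in the table, 4 held a kappaB match (LTB, TNFRSF14, TNFRSF9 and TNFSF14), against 6.88% of 35116 promoters of the same length. TGANTCA was in 3 of the 23 and in 6.57% of all, TATAAA in 4 of the 23 and in 6.80% of all, and GAAANNGAA in 3 of the 23 and in 6.88% of all. A match is a description of the letters and not a binding site. A site that departs from the searched letters goes unmarked, so a stretch without a match, as TNF for kappaB, may still hold one.

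The probes of LTB, TNF and TNFSF12 are shown by their first 30 of 60 bases, because LTB and TNF lie side by side on chromosome 6 and the 2 probes of TNFSF12 differ in outcome. In GRCh37, as named in the file headers, the LTB probe lies at chr6:31548335-31548394 (minus strand), 2439 bases from the TNF probe at chr6:31545837-31545896 (plus strand). The TNFSF12 probes lie at chr17:7461108-7461167 and chr17:7453452-7453511 (plus strand).
LTB probe: ggaaattgattttgaacctgatgaaaataa
TNF probe: ggggtatcctgggggacccaatgtaggagc
TNFSF12 probe A_24_P245298: cctcccttgagaattccctgtggattttta
TNFSF12 probe A_33_P3406623: acagaagaaagccaggatcctgcgcctttc

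Of the 34 genes, 15 were well above background on all 4 arrays, 9 on some arrays and 10 on none. With a weaker detection flag of the scanner software, positive and significant against background, 23 were detected on all 4. Among all 25992 genes, 13787 were well above background, with a value, on all 4 arrays. Each array had 19 or 20 of the 34 above background, that is 55.9 to 58.8%, against 58.7 to 63.5% of all genes. No member was saturated. Among ligands the split was 5 on all arrays, 3 on some and 5 on none, the last being TNFSF11 (RANKL), TNFSF15, TNFSF18, TNFSF4 (OX40 ligand) and TNFSF8 (CD30 ligand). The 5 death domain receptors were above background on every array. Of 4 decoy receptors 2 were above background on all arrays and 2 on some, and of 12 other receptors 3 were on all, 4 on some and 5 on none, namely TNFRSF13B, TNFRSF17, TNFRSF19, TNFRSF1B (TNF receptor 2) and TNFRSF4 (OX40).

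**Figure D1:**
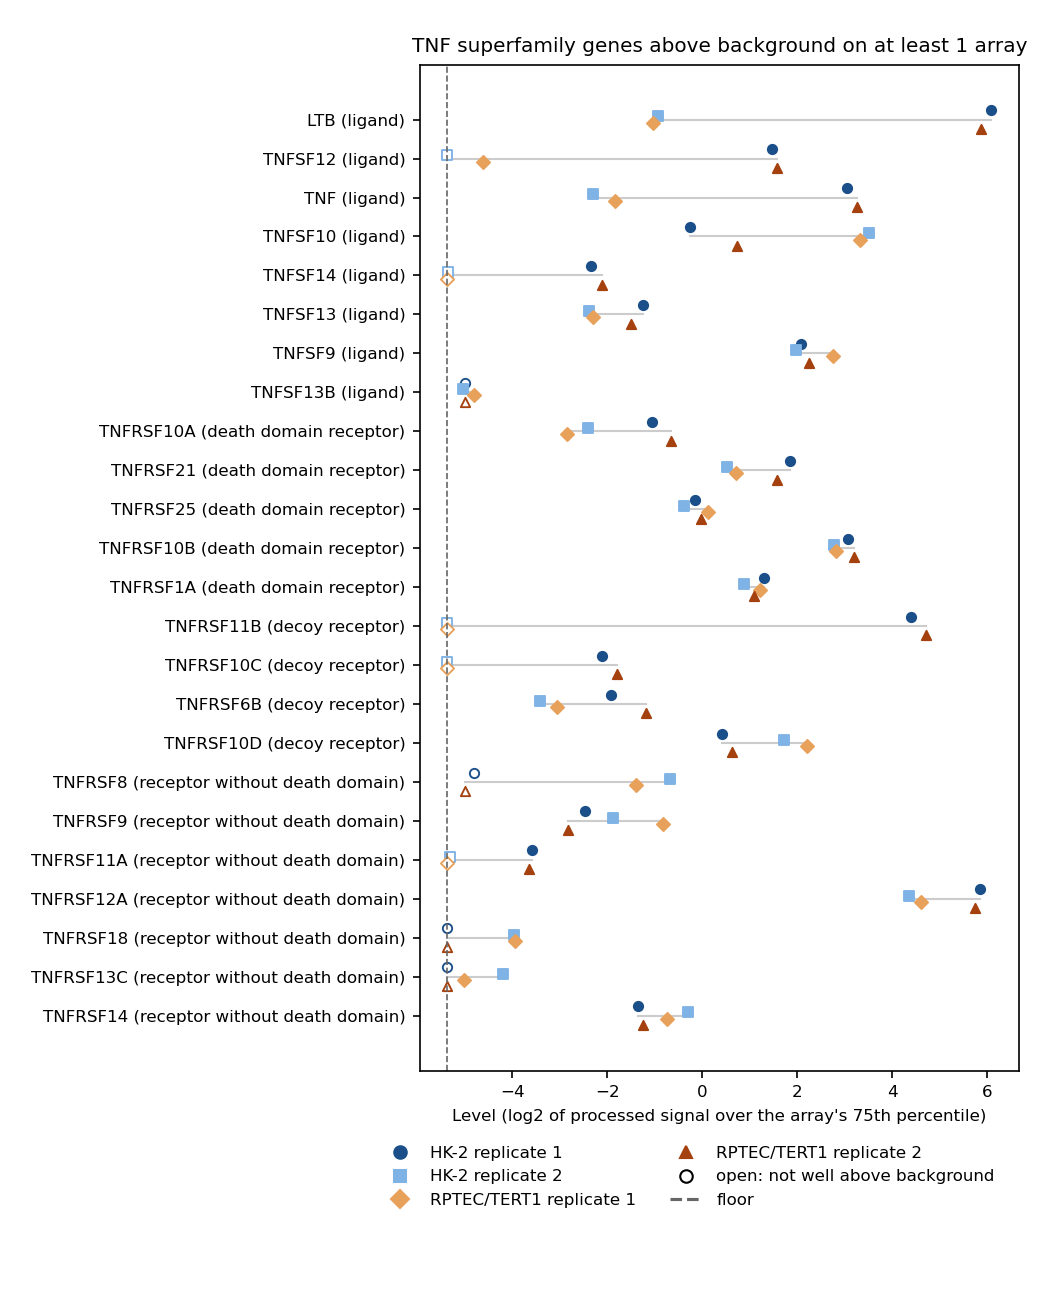
Level of each of the 24 TNF superfamily genes detected above background on 1 array or more (x axis, log2 of processed signal over the 75th percentile of the array), by role and, within a role, by range over the arrays. Each point is 1 array, open points are not well above background and the dashed line is the floor at -5.37; LTB, TNF, TNFSF12 and TNFRSF11B are high on RPTEC/TERT1 replicate 2 and HK-2 replicate 1, and TNFRSF8 and TNFSF10 are high on the other two arrays. Levels of different genes come from different probes and are not comparable with each other.

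LTB (lymphotoxin beta), which anchors lymphotoxin alpha at the cell surface, had levels of 6.09, -0.94, -1.04 and 5.87. It was high on RPTEC/TERT1 replicate 2 and HK-2 replicate 1 and low on the other two arrays, so the labels overlap. The high and low arrays were 130.1-fold apart within HK-2 and 120.3-fold within RPTEC/TERT1, while RPTEC/TERT1 replicate 2 and HK-2 replicate 1 lay 1.16-fold apart. The mean was 2.58 ± 4.97 (SD, n = 2) in HK-2 and 2.42 ± 4.89 (SD, n = 2) in RPTEC/TERT1, and limma gave a difference of 0.16 (95% interval -9.04 to 9.36).

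TNF, the founding inflammatory cytokine of the family, had levels of 3.04, -2.31, -1.84 and 3.25. The same 2 arrays were high as for LTB, and the values differed 40.7-fold within HK-2 and 34.2-fold within RPTEC/TERT1. HK-2 minus RPTEC/TERT1 by limma was -0.34 (95% interval -7.27 to 6.60). LTA, which encodes lymphotoxin alpha and whose probe at chr6:31541154-31541213 lies on the other side of TNF, was above background on 0 arrays, and is named here for its position after its values were seen.

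TNFSF12 (TWEAK), the ligand of the receptor Fn14, was read by A_24_P245298 at 1.47, -5.37, -4.62 and 1.57, the level on HK-2 replicate 2 not being well above background. It was at least 115-fold higher on HK-2 replicate 1 than on HK-2 replicate 2, and 72.7-fold higher on RPTEC/TERT1 replicate 2 than on RPTEC/TERT1 replicate 1. The second probe, shown above, was well above background on no array, so the pattern rests on 1 probe. TNFSF13 (APRIL), whose probe begins 2301 bases further along chromosome 17, had levels of -1.24, -2.39, -2.30 and -1.49, with the same arrays high by 2.22-fold within HK-2 and 1.75-fold within RPTEC/TERT1.

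TNFSF14 (LIGHT), which binds TNFRSF14 and the lymphotoxin beta receptor, had levels of -2.35, -5.35, -5.37 and -2.12. It was well above background only on RPTEC/TERT1 replicate 2 and HK-2 replicate 1, at least 8.04-fold higher than on the other HK-2 array and at least 9.53-fold higher than on the other RPTEC/TERT1 array. TNFSF9 (4-1BB ligand), 129014 bases away by its probe on chromosome 19, did not share this order and stood at 2.07, 1.98, 2.75 and 2.25.

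TNFSF10 (TRAIL), the ligand of the TRAIL death receptors, ran the other way. The probe spotted 10 times gave -0.16, 3.19, 3.51 and 0.23, and the second probe gave -0.34, 3.82, 3.13 and 1.24. Both were high on RPTEC/TERT1 replicate 1 and HK-2 replicate 2. The gene, as the mean of both probes, differed 13.5-fold within HK-2 and 6.01-fold within RPTEC/TERT1. The SD among the spots of the first probe was 0.07 to 0.18 on the log2 scale, which is technical error within an array only. TNFSF13B (BAFF), a B cell survival factor, lay just above the floor at -4.99, -5.04, -4.82 and -5.00. It was well above background only on RPTEC/TERT1 replicate 1 and HK-2 replicate 2.

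Of the 5 death domain receptors, 3 stayed within 1 log2 unit over all arrays. TNFRSF1A (TNF receptor 1), the main receptor of soluble TNF, had levels of 1.30, 0.89, 1.22 and 1.09, and TNFRSF10B (TRAIL receptor 2) had 3.08, 2.78, 2.81 and 3.19. Their widest gaps between any 2 arrays were 1.33-fold in both genes. TNFRSF25 (DR3) lay at -0.16, -0.39, 0.13 and -0.03 by 1 probe, its other probe being at the floor. TNFRSF10A (TRAIL receptor 1) had levels of -1.06, -2.40, -2.84 and -0.66, and TNFRSF21 (DR6) had 1.85, 0.51, 0.70 and 1.57. These last 2 genes were high on RPTEC/TERT1 replicate 2 and HK-2 replicate 1, by 2.53-fold in each within HK-2.

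Among the decoy receptors, TNFRSF11B (osteoprotegerin), which binds RANKL and TRAIL, had the widest range of all members. Its levels were 4.41, -5.37, -5.37 and 4.72 from a probe spotted 10 times, of which 1 or 2 spots an array were marked as outliers and left out, the 2 low arrays not being well above background. HK-2 replicate 1 was at least 878-fold above HK-2 replicate 2, and RPTEC/TERT1 replicate 2 at least 1089.6-fold above RPTEC/TERT1 replicate 1. The SD among spots was 0.17 and 0.07 on the 2 bright arrays.

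TNFRSF10C (TRAIL receptor 3) stood at -2.11, -5.37, -5.37 and -1.80, above background on the same 2 arrays as TNFRSF11B and at least 9.60-fold higher within HK-2. TNFRSF6B (decoy receptor 3), which binds FAS ligand, TNFSF14 and TNFSF15, read -0.51, -2.42, -1.94 and -0.16 on one probe and -3.34, -4.42, -4.19 and -2.19 on the other, with the same arrays high on both. TNFRSF10D (TRAIL receptor 4) was the exception among decoys, at 0.42, 1.73, 2.21 and 0.63, and was lower on the arrays where the other decoys were high.

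Receptors without a death domain held members of both orders. TNFRSF12A (Fn14), the receptor of TNFSF12, had levels of 5.85, 4.36, 4.61 and 5.74, and TNFRSF11A (RANK) had -3.58, -5.31, -5.37 and -3.65. Both were high on RPTEC/TERT1 replicate 2 and HK-2 replicate 1, by 2.81-fold and at least 3.32-fold within HK-2. TNFRSF8 (CD30), a receptor known from activated lymphocytes, had -4.82, -0.67, -1.39 and -4.99 and was above background only on the other two arrays, at least 17.7-fold higher within HK-2 and at least 12.2-fold higher within RPTEC/TERT1.

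TNFRSF18 (GITR) read -5.37, -3.96, -3.95 and -5.37, and TNFRSF13C (the BAFF receptor) read -5.37, -4.20, -5.01 and -5.37, both above background on RPTEC/TERT1 replicate 1 and HK-2 replicate 2 only. TNFRSF9 (4-1BB) had levels of -2.46, -1.88, -0.82 and -2.82, with RPTEC/TERT1 replicate 1 highest. TNFRSF14 (HVEM), the receptor of TNFSF14, gave different orders by probe, with -0.81, 0.91, 0.85 and -1.23 on A_23_P126908 and -1.89, -1.52, -2.35 and -1.24 on A_33_P3286302. The remaining TNFRSF14 probe was at the floor on all arrays.

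**Figure D2:**
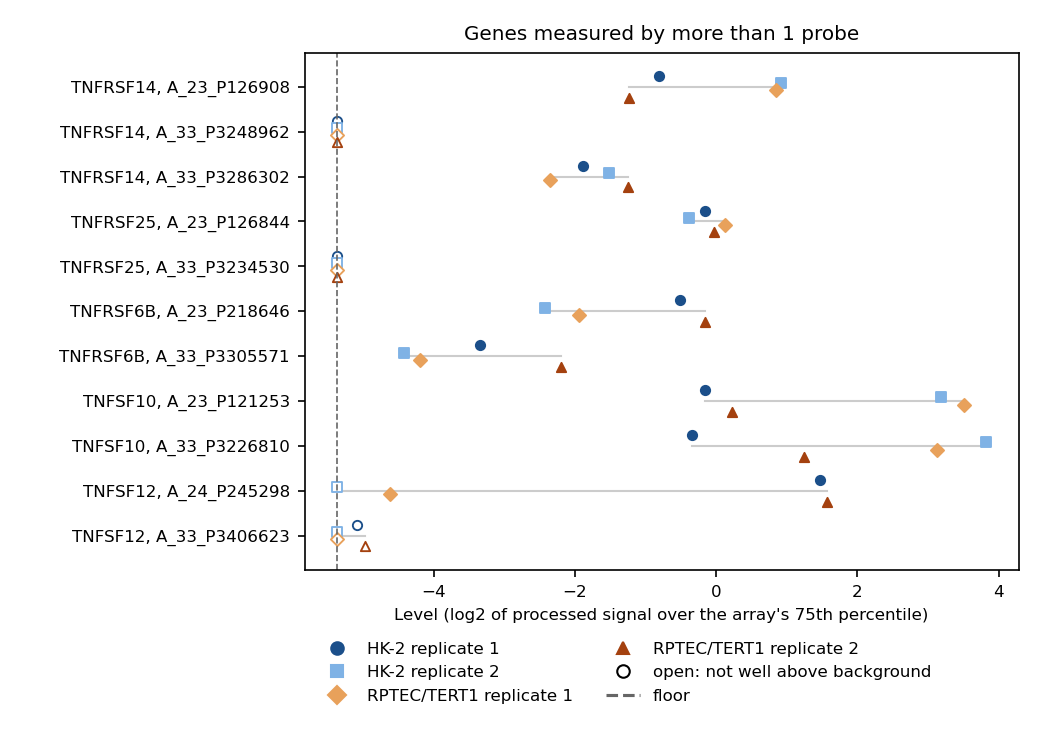
Level of each probe (x axis, log2 of processed signal over the 75th percentile of the array) for the members measured by more than 1 probe and above background on at least 1 array. Each point is 1 array and open points are not well above background. The 2 probes of TNFSF10 and of TNFRSF6B give the same high and low arrays, while the TNFRSF14 probes above background differ. For TNFSF12, A_33_P3406623 is well above background on no array.

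HK-2 was compared with RPTEC/TERT1 by limma across 16473 genes above background on at least 2 arrays, where 0 genes (0% of those tested) passed an adjusted p of 0.05 and 23 had an unadjusted p under 0.05. Of the 24 members tested, 0 passed and 0 had an unadjusted p under 0.05. Every member's adjusted p by limma was 1. The 2 arrays of a label are described by the study as biological duplicates, and the test sets the difference between label means against the spread within labels. Limma draws the spread of each gene toward a value shared by all genes, so no interval rests on the gene's own arrays alone. TNFSF13B, with an SD of 0.03 in HK-2 and 0.13 in RPTEC/TERT1, had a standard error of 0.42. The intervals are wide for members that differ within a label, as for TNFRSF11B (difference -0.16, 95% interval -13.2 to 12.9), and narrower for those that do not, as for TNFRSF10B (-0.07, -1.29 to 1.15), TNFRSF1A (-0.06, -1.26 to 1.14) and TNFSF9 (-0.48, -1.71 to 0.75).

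Pairs of arrays show the size of these differences. Between the 2 HK-2 arrays, 18 of 24 members (75%) differed by more than 1 log2 unit, against 34.2% of all genes, and the median absolute difference was 1.38 for the members and 0.67 for all genes. Between the 2 RPTEC/TERT1 arrays it was 15 of 24 (62.5%) against 40.9%, with medians of 1.65 and 0.80. A member above background on only 1 array of a pair passed the filter through its brighter array, so these shares describe the members measured and not the family as a whole.

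Within replicate 1, 12 of 24 members were higher on HK-2 by more than 1 log2 unit, against 20.1% of all genes, and 5 were lower, against 16.6%. Within replicate 2 the direction turned, with 5 members higher (15.9% of all genes) and 11 lower (17.9% of all genes). Since the arrays resembled each other across the labels, this turn repeats that resemblance and is not a separate result. The median absolute differences were 1.53 and 1.40 for the members. Between RPTEC/TERT1 replicate 2 and HK-2 replicate 1, 0 of 20 members passed 1 log2 unit, where 6.85% of all genes did, and the median was 0.22 for the members and 0.23 for all genes. The members' median in this pair was 0.97 with normexp background correction, near the 1.08 of that setting within replicate 2, and 0.24 with normexp fitted without 7 spots of bright local background, an alternative added after seeing the data. Between RPTEC/TERT1 replicate 1 and HK-2 replicate 2 it was 1 of 20 members, where 7.92% of all genes did, with medians of 0.40 and 0.32. That member was TNFRSF9.

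**Figure D3:**
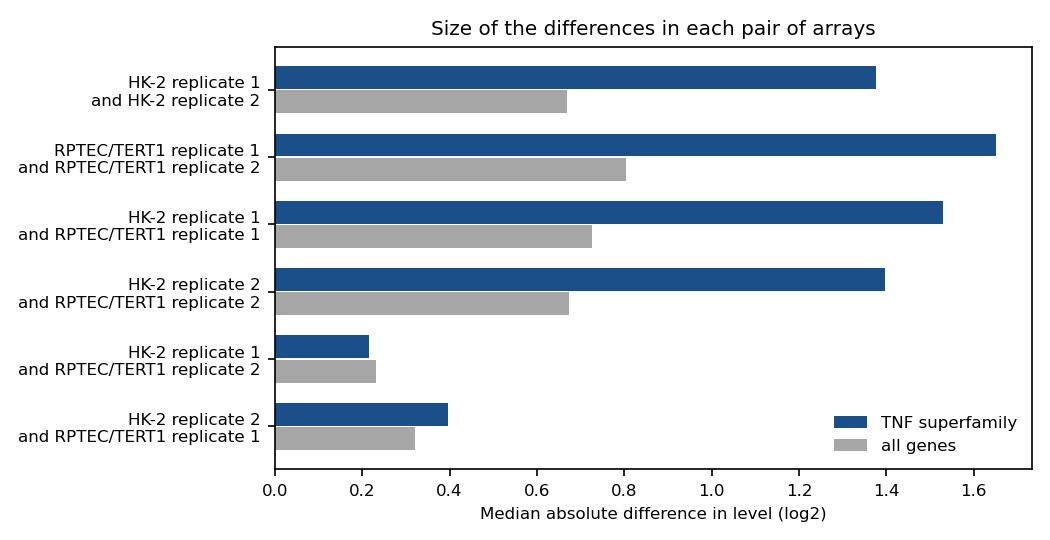
Median absolute difference in level (x axis, log2 units) between the arrays of each of the 6 pairs, for the TNF superfamily genes (dark bars) and all genes (grey bars) detected on either array of the pair. The members' medians are 1.38 to 1.65 in 4 pairs and 0.22 and 0.40 in the other two.

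Counting members past 1 log2 unit in opposite directions within replicate 1 and replicate 2, 11 of 24 were higher on HK-2 in replicate 1 and lower in replicate 2, against 13.4% of all 17928 genes, namely LTB, TNF, TNFSF12, TNFSF14, TNFRSF10A, TNFRSF10C, TNFRSF11A, TNFRSF11B, TNFRSF12A, TNFRSF21 and TNFRSF6B. The reverse held for 4 of 24, against 11.7% of all genes, namely TNFSF10, TNFRSF10D, TNFRSF18 and TNFRSF8. Of the members named, TNFRSF10C, TNFRSF11A, TNFRSF11B, TNFSF14, TNFRSF18 and TNFRSF8 passed the filter only through the arrays where they are high. These counts therefore describe the members measured and not the family as a whole. Like the turn in direction, they repeat the resemblance of the arrays across the labels. In the same direction past 1 log2 unit within both numbers were 0 of 24 members and 36 of all 17928 genes. With the deposited log2 values in place of the processed signals, the 15 became 7, and LTB, TNF, TNFRSF10C, TNFRSF11B, TNFSF12, TNFRSF10D and TNFSF10 remained among them.

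**Figure D4:**
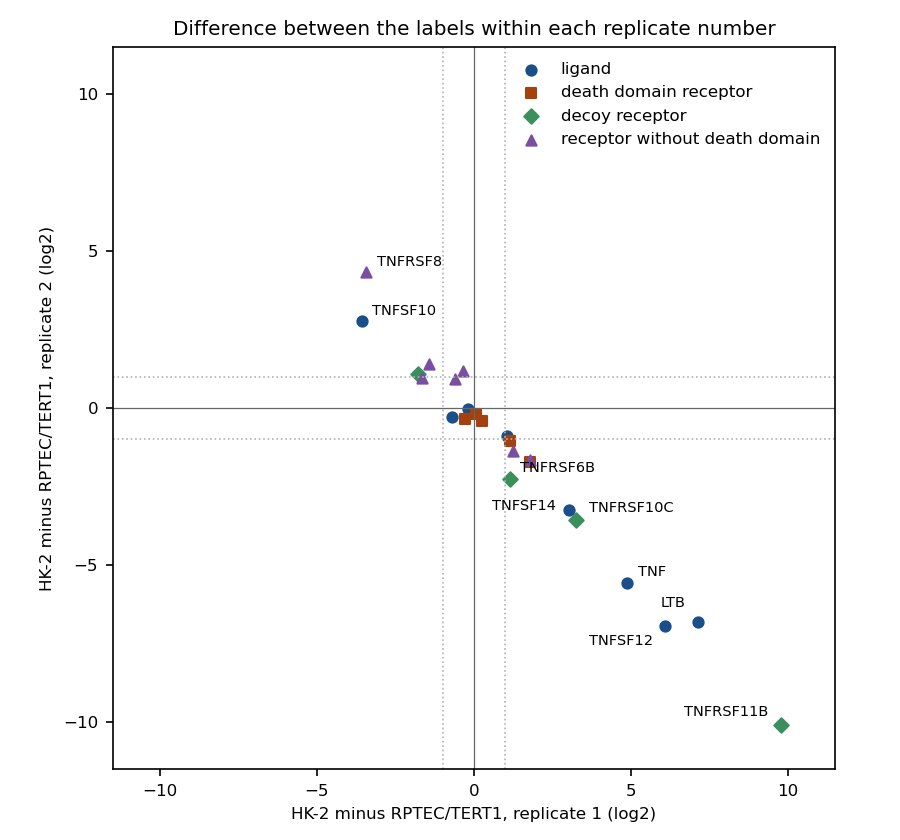
Difference in level between HK-2 and RPTEC/TERT1 within replicate 1 (x axis, log2) and within replicate 2 (y axis, log2) for the 24 measured members, by role. Dotted lines mark 1 log2 unit; TNFRSF11B, LTB, TNFSF12 and TNF lie at the lower right and TNFRSF8 and TNFSF10 at the upper left, so each differs in opposite directions in the 2 replicate numbers.

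Genes that belong to the same signalling system but not to the naming rule were read from lists chosen by function. Among 13 further family members, 6 were above background on all arrays and 6 on none. Of 7 measured, 1 was higher on HK-2 in replicate 1 and lower in replicate 2, against 13.4% of all genes. The reverse held for 1 of 7, against 11.7% of all genes. These were FAS, the FAS ligand receptor, at -0.07, -1.70, -1.84 and -0.17, and CD70, a costimulatory ligand, at 1.09, 3.52, 3.14 and 1.57. CD40, a costimulatory receptor, was 2.08, 1.05, 1.28 and 1.96.

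All 8 TRAF adaptors were above background on every array, as were 13787 of all 25992 genes. TRAF3IP2, at 0.46, -0.52, -0.61 and 0.66, was higher on HK-2 in replicate 1 and lower in replicate 2 by more than 1 log2 unit. That is 1 of 8, against 13.4% of all genes. TANK, a TRAF-binding protein, stood at -0.48, -0.95, -1.24 and -0.02 and TRAF3 at 0.78, -0.05, -0.01 and 0.90. Of 12 death domain and caspase genes, 11 were above background on all arrays. In 1 of 11, against 13.4% of all genes, the differences were opposed as for TRAF3IP2. This was the caspase-8 inhibitor CFLAR, at 0.72, -0.58, -0.40 and 0.68. MLKL, the effector of necroptosis, ran the other way at -0.21, 0.64, 0.98 and -0.30. The adaptor FADD stood at 3.40, 2.89, 2.61 and 3.65 and TRADD at 2.85, 1.95, 2.13 and 3.08. Limma called 0 genes of any list between the labels.

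In the ubiquitin and kinase relay downstream of the receptors, 4 of 16 genes were higher on HK-2 in replicate 1 and lower in replicate 2, against 13.4% of all genes. TNFAIP3 (A20), a deubiquitinase that restrains NF-κB, had levels of 1.81, -1.20, -1.95 and 1.74. BIRC3 (cIAP2), a ubiquitin ligase bound by TRAF2, had 4.03, 2.91, 2.26 and 4.54, and TNIP1, a partner of TNFAIP3, had 4.72, 3.52, 3.37 and 5.14. Each of these genes was high on the arrays where LTB and TNF were high.

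Among 5 genes of ligand shedding, 3 of 4 measured were in the same order, against 13.4% of all genes. RHBDF2 (iRhom2), which brings the TNF-cleaving protease to the cell surface, had 3.94, 1.61, 1.35 and 3.76, and RHBDF1 had 0.82, -1.50, -1.16 and 0.68. ADAM17, that protease, stood at 0.03, 0.35, 0.68 and -0.03. Of 7 genes named as TNF-inducible, 2 of 4 measured were in that order, against 13.4% of all genes. These were TNFAIP6 at 0.02, -3.37, -3.70 and 0.78 and TNFAIP8 at 1.18, -0.46, -0.77 and 1.34, while TNFAIP8L1 was at 2.82, 3.49, 3.18 and 3.16. TNFAIP2 had levels of 7.68 on HK-2 replicate 1 and 7.37 on RPTEC/TERT1 replicate 2 and no value on the other two arrays, whose spots were marked as outliers.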

How the data were processed

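Gene expression was measured on 4 one-colour arrays (Human GE 4x44K v2), 2 labelled HK-2 and 2 labelled RPTEC/TERT1. Groups, replicate numbers, doses and times are those of the labels. The authors deposited spot intensities from Agilent Feature Extraction 9.5.3.1, whose processed signal is background-subtracted and not scaled between arrays, and a table of log2 values whose normalization is not given in the sources here. The deposited log2 values follow the rank of the median signal minus local background, with array medians of 8.33, 7.14, 6.75 and 6.72, have the same direction as the intensities and served only as an alternative. Their centring and scaling are unknown.

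Control and outlier spots were dropped. Each processed signal was scaled to its array's 75th percentile (393, 748, 488 and 429 in the order of the report), floored and taken to log2. Detection of a probe followed the majority of its spots, with ties counted as detected, and gene levels are means over the probes detected on 1 array or more. No column of other samples was present. Precision is limited by the number of arrays. Probes spotted 10 times had a median SD of 0.08 to 0.14 on the log2 scale.

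The labels were compared with limma 3.58.1 in R 4.3.3 (lmFit and eBayes), with Benjamini-Hochberg adjustment over all 16473 genes tested. Simulated arrays of this design held 16473 genes with a spread of 0.2 on the log2 scale. On them the limma step recovered 200 of 200 genes changed by 2 log2 units, with 6 false calls. The within-label SD of many members is larger, with a median of 1.01 for the levels of the named members. Recovery at such a spread was not tested. Pairs of arrays were described without a test. Same-numbered arrays deviated from their label means with a correlation of -0.78, so the numbers were not taken to pair the arrays. Tables were handled in Python 3.11.15 with pandas 2.3.3, and figures drawn with matplotlib 3.10.9.

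Every member is accounted for, and genes of the pathway lists are named only if among the 2 widest or 2 brightest of their list. Members and lists were chosen with earlier results of these data known. RefSeq (GRCh38.p14) listed all 34 symbols and the transcripts of 41 of 43 probes. Alternatives covered background correction, normalization, the deposited values, the brightest probe, outlier spots, the filter, the replicate block and leaving out each array.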

Additional observations from a re-analysis of the deposited data

Results flagged for a closer look

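For 8 members the difference HK-2 minus RPTEC/TERT1 lay past 2 log2 units in opposite directions within replicate 1 and within replicate 2. These opposite differences were not tested, since each rests on 1 array against 1 array. Their opposite directions repeat the resemblance of the arrays across the labels. LTB differed by 7.13 within replicate 1 and by -6.81 within replicate 2. TNF differed by 4.88 and -5.56. TNFRSF11B differed by 9.78 and -10.09, TNFSF12 by 6.09 and -6.94, TNFRSF10C by 3.26 and -3.57, and TNFSF14 by 3.03 and -3.23, each with at least 1 array not well above background, so that these values depend on the floor. TNFSF10 differed by -3.57 and 2.77 and TNFRSF8 by -3.43 and 4.32, the latter also with 2 arrays not well above background.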

How the results depend on the processing

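No member and no gene was called between the labels under any alternative run, including the fit with the replicate number as a block (0 called, 5 genes with an unadjusted p under 0.05) and fits without each array in turn (0 called, 15 to 105 such genes). In the latter 1 label keeps a single array, which is assumed to vary like the other label, so they say little about stability. A crossed block, added after seeing the data, also called 0 genes, with 183 at an unadjusted p under 0.05. The members' median absolute difference moved with the processing in most pairs. Between the HK-2 arrays it went from 1.38 to 2.08 with normexp and 1.07 with normexp fitted without 7 spots of bright local background, an alternative and a limit chosen after seeing the data. Between the RPTEC/TERT1 arrays it went from 1.65 to 1.12 with either normexp, 1.93 with quantile normalization, 0.98 with the deposited log2 values and 1.12 with members above background on all arrays. Within replicate 1 it went from 1.53 to 1.98, 1.72, 1.72 and 1.14 under normexp, quantile, deposited values and that filter, and to 0.99 with normexp without the bright spots. Within replicate 2 it went from 1.40 to 1.08, 1.72, 0.84 and 1.06, and to 1.07. Between RPTEC/TERT1 replicate 2 and HK-2 replicate 1 it went from 0.22 to 0.97 with normexp and 0.24 without the bright spots. Members with opposite differences numbered 15, and 7 with the deposited values, 11 with either normexp, 14 with quantile and 16 with the brightest probe. Members above background on all arrays rose from 15 to 23 under a weaker detection flag and were 15 to 16 without each array. The cause of these shifts was not tested.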
